A study of Mus musculus with 4 samples.

Results

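The triple combination of gemcitabine, paricalcitol and hydroxychloroquine (GPH) was set against paricalcitol plus hydroxychloroquine (PH) in mouse pancreatic ductal adenocarcinoma, treatments that differ by gemcitabine. RNA of single cells was read in droplets (10x Genomics), with 1 library per treatment and tissue of 3 animals pooled in each library. A barcode was kept when it held 500 UMIs or more (unique molecular identifiers, each standing for 1 captured RNA molecule), showed 300 genes or more and had no more than 20% of its UMIs from mitochondrial genes. This left 4579 cells of GPH and 16033 of PH, out of 45685 over all 4 libraries of the study. Tumour cells were taken as those with at least 20 Vim UMIs per 10000, at least 1 Cdkn2a UMI, no Ptprc UMI and Krt19 under 10 per 10000. This gate held 1425 cells of GPH and 11257 of PH. Immune cells were those with at least 1 Ptprc UMI and no Cdkn2a UMI, 152 in GPH and 786 in PH. The labels give paricalcitol and hydroxychloroquine for PH without doses. The treatment label of GPH ends after gemcitabine at 60 mg per kg given into the peritoneum, so the other drugs of that group were taken from its title. Strain, age and genotype are not stated in the labels used here, nor is the time of the last dose. The other libraries of the study, a PBS control and gemcitabine alone (G), are used here to show where the levels of PH and GPH lay and, in 1 paragraph, as a second pair that differs by gemcitabine.

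Gemcitabine is a nucleoside analogue that is phosphorylated inside the cell, blocks ribonucleotide reductase and stops the growing DNA strand, so it acts on cells in S phase. Paricalcitol is an activator of the vitamin D receptor, a nuclear receptor. Hydroxychloroquine collects in lysosomes, raises their pH and blocks the last step of autophagy. Pancreatic ductal adenocarcinoma can lose its keratins and take on a mesenchymal form with vimentin, while its stroma brings in macrophages, neutrophils and few T cells.

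The libraries differed in depth and in cell make-up before any gene was compared. Kept cells of GPH had a median of 21093 UMIs and those of PH 8616. Barcodes past the mitochondrial limit of 20%, which were removed, made up 41.0% of GPH and 12.7% of PH. The tumour gate took 31.1% of the kept GPH cells (29.8 to 32.5, exact Clopper-Pearson 95% interval) and 70.2% of the PH cells (69.5 to 70.9). Cells with Krt19 at 10 per 10000 or more and no Ptprc, here keratin-high cells, were 47.6% of GPH and 1.95% of PH. Within the tumour gate the median depth was 15298 UMIs in GPH and 10422 in PH, and the summed UMIs were 27347882 and 154837313. The libraries shared 47 barcodes, 0.594% of those of GPH and 0.253% of those of PH.

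The gates were checked against markers they did not use, except that the ductal tumour markers include Krt19, which the tumour gate limits. In the tumour gate, 8 genes shared by leukocytes summed to 27.9 CPM (a gene's UMIs per 1000000 UMIs of the gate) in GPH and 38.7 in PH. Markers of ductal tumour summed to 1692 CPM in GPH and 1944.5 in PH. Fibroblast markers summed to 1286 CPM in GPH and 442 in PH. The fibroblast receptor genes were low in both libraries but higher in GPH, Pdgfra with 1.54 CPM in GPH and 0.67 CPM in PH and Pdgfrb with 8.04 and 0.70 CPM. Pdgfrb was 11.5-fold higher (9.12 to 14.7), with UMIs in 118 of 1425 GPH cells and 89 of 11257 PH cells. Cells with a UMI of the matrix genes Dcn or Dpt were 78.7% of the tumour gate in GPH and 42.0% in PH. With every cell thinned to 3000 UMIs, which left out 48 GPH and 507 PH cells, the shares were 53.2% and 22.6%. In keratin-high GPH cells, at a median of 42543 UMIs, the share was 6.14% and 0.674% when thinned. The tumour results were therefore also computed in cells with and without these UMIs. In the immune gate, 46.1% of GPH cells and 2.42% of PH cells carried a Krt19 UMI, and 34.9% and 9.92% had fewer than 3 of 8 genes common to leukocytes. A stricter leukocyte gate, with at least 3 of these genes and keratins under 10 per 10000, held 87 GPH cells and 706 PH cells and is used for the immune results.

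A gene counted as measured at 20 CPM or more in at least 1 of both libraries and 20 UMIs over the pair. With 1 library per treatment there was no replicate, no test was run, and genes were called by size alone, at 1.5-fold or more. Intervals are exact conditional binomial 95% intervals on the UMI counts. They cover counting error only and do not hold the spread between animals. In the tumour gate, 1133 of 5052 measured genes (22.4%) were at least 1.5-fold higher in GPH and 322 (6.37%) at least 1.5-fold lower. The interval lay wholly past 1.5-fold for 928 genes (18.4%) and 253 genes (5.01%). The split depends on the scaling. With edgeR's TMM factors 590 genes were higher and 828 lower of 4999 measured, and the median log2 ratio of all measured genes moved from 0.17 to -0.13. For comparison, gemcitabine alone over control gave 211 of 4530 genes higher (4.66%) and 279 lower (6.16%). Among the 1133 genes higher in GPH, GPH lay above all 3 other libraries for 1063 and PH lay below all 3 others for 553, with 497 counted under both.

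Genes with at least 50 CPM in GPH or PH were ranked by the interval bound nearest to 1. In the tumour gate those ranked first are secreted, matrix and stress genes on the high side. On the low side they are sterol, histone and cell cycle genes. Clu, the gene of the secreted chaperone clusterin, had 13.4 CPM in PH and 298 CPM in GPH. That is a 22.3-fold difference (21.2 to 23.4), and control with 32.1 CPM and G with 92.0 CPM lay between. Complement C3 had 24.2 CPM in PH and 314 CPM in GPH, 12.9-fold higher (12.5 to 13.5). Pleiotrophin (Ptn), a heparin-binding growth factor, had 22.2 CPM in PH and 263 CPM in GPH, 11.9-fold higher (11.4 to 12.4), and G was at 169.8 CPM. Hmox1, which breaks down haem, had 58.7 CPM in PH and 563 CPM in GPH, 9.59-fold higher (9.35 to 9.85), with G at 129 CPM. The hyaluronan synthase gene Has2 had 19.0 CPM in PH and 172 CPM in GPH, 9.07-fold higher (8.66 to 9.50), and smooth muscle actin (Acta2) had 23.1 and 203 CPM, 8.79-fold higher (8.42 to 9.17). The other genes of the upper list were Rarres2, C4b, Mmp19 and Lcn2, between 6.87-fold and 18.9-fold higher. Lgals4 and Plac8 were on it too, at 52.8 and 138 CPM in GPH. In the keratin-high cells of GPH these reached 3133 and 2628 CPM, so the tumour gate held 1.68% of the keratin-high level of Lgals4. Only 16 of the 1133 genes were under 1/10 of their keratin-high level, which leaves 1117.

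The 12 genes ranked first on the low side in the same way were led by Idi1 and Fdps, enzymes that make the isoprene units of cholesterol. Fatty acid binding protein 5 (Fabp5) had 244 CPM in PH and 58.6 CPM in GPH, 4.16-fold lower (3.96 to 4.38). The calcium-binding protein S100a6, among the most abundant transcripts, had 21977 CPM in PH and 7246 CPM in GPH, 3.03-fold lower (3.02 to 3.05). N-cadherin (Cdh2) had 51.6 and 15.6 CPM, 3.32-fold lower. Histone genes Hist1h2ap and Hist1h2ae and the growth genes Stmn1 and Pclaf were between 2.97-fold and 5.18-fold lower. Histone genes are close copies of each other, so how reads were shared among them is uncertain, as it is for Ifit3 and C4b, which have near-identical neighbours.

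**Figure D1:**
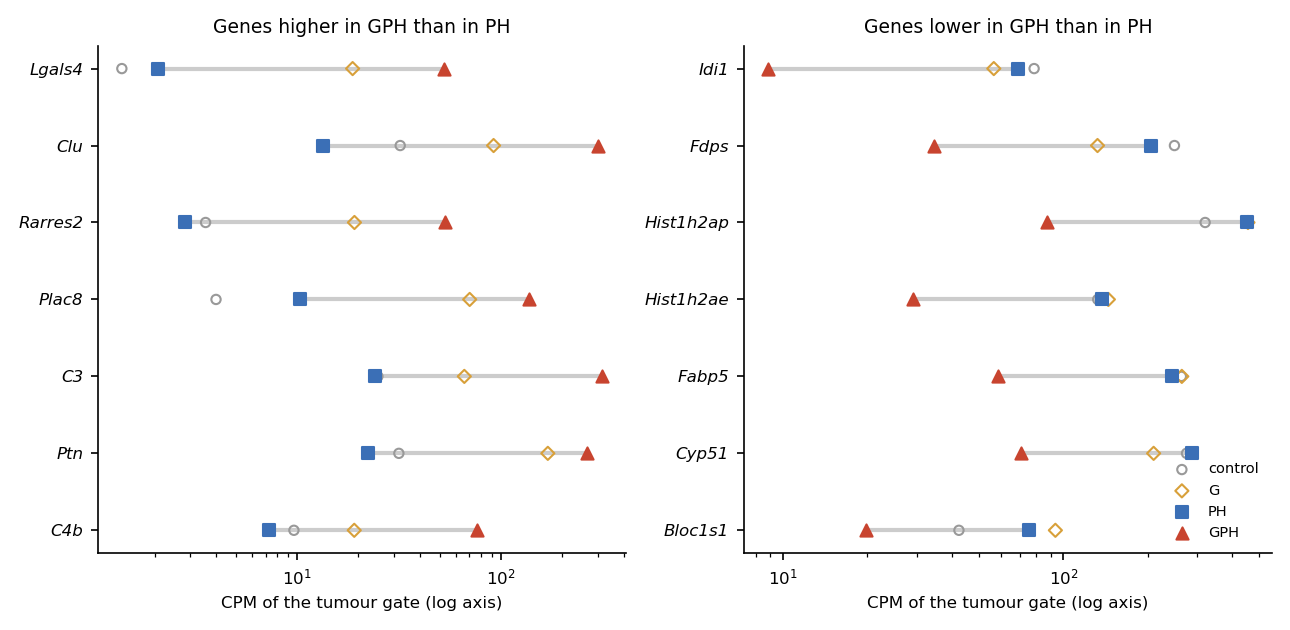
Level of the first 7 ranked genes in each direction in the tumour gate, in CPM on a log axis, with 1 point per library. Genes with at least 50 CPM in GPH or PH were ranked by the interval bound nearest to 1. Squares are PH, triangles GPH, open circles control and open diamonds G, and the grey bar joins PH and GPH. Clu, C3 and Ptn reach 298, 314 and 263 CPM in GPH, and Idi1 and Fdps have their lowest values there, 8.81 and 34.4 CPM.

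Cholesterol synthesis genes lay on the low side in GPH, and their list had the lowest median of those plotted. Its genes are switched on together by the membrane-bound factor SREBP2 when sterols in the endoplasmic reticulum run short. None of its 14 measured members was higher by 1.5-fold and 11 were lower, with a median log2 ratio of -1.43, where all measured genes had 0.17. Without the CPM limit, 18 of 22 members were lower and none had a ratio above 1, where 27.2% of all genes counted in this way were higher and 14.8% lower. Hmgcs1, the synthase at the head of the pathway, had 76.0 CPM in PH and 26.4 CPM in GPH, 2.88-fold lower (2.67 to 3.11). Control had 94.7 CPM and G 74.6 CPM of Hmgcs1, so GPH stood apart from the other libraries. Idi1 had 68.7 CPM in PH and 8.81 CPM in GPH, 7.79-fold lower (6.86 to 8.89). Fdps had 206 and 34.4 CPM, 5.98-fold lower (5.60 to 6.38). The demethylase Cyp51 had 288 and 70.4 CPM, 4.10-fold lower (3.91 to 4.29). Srebf2, the gene of SREBP2 itself, was at 46.4 and 27.0 CPM, 1.72-fold lower. Sqle, Scd1 and Scd2 differed by less than 1.5-fold.

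For all 11 lower members, GPH lay below the other 3 libraries, while PH lay above them for 2. Over all 322 genes on the low side these shares were 91.6% and 44.4%. The median log2 ratio was -1.24 in cells with a Dcn or Dpt UMI and -1.15 in cells without. In the leukocyte gate the same list gave 2 members higher (22.2%) and none lower of 9 measured. All measured genes of that gate had 31.9% and 10.9%. The 250 bases before the RefSeq start of Hmgcs1 (RefSeq, GRCm38.p6, chr13:119690101-119690350, plus strand) are shown because they hold a sterol response element, TCACNCCAC, in capitals.

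Hmgcs1: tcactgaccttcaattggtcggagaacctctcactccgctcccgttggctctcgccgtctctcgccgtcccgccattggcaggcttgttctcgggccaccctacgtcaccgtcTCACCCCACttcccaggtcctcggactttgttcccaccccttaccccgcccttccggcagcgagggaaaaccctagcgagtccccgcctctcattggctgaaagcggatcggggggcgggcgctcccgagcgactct

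The motif was searched on both strands. It was found in 1 of 13 list members with a promoter in the table, and in 346 of 32851 promoters of that length (1.05%).

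Inflammatory and acute phase genes lay on the high side in the tumour gate. Of 12 measured acute phase and complement genes all 12 were at least 1.5-fold higher in GPH, with a median log2 ratio of 2.37, and without the CPM limit 18 of 23 were higher and 1 lower. The complement protease gene C1s1 had 25.6 CPM in PH and 156 CPM in GPH, 6.09-fold higher. Serum amyloid Saa3 had 21.9 and 113 CPM, 5.19-fold higher. Lipocalin 2 (Lcn2), which binds iron carriers of bacteria, had 16.7 CPM in PH and 115 CPM in GPH, 6.87-fold higher (6.52 to 7.24), with control at 3.32 CPM and G at 21 CPM. For 11 of the 12 genes GPH lay above the other 3 libraries, near the 93.8% of all 1133 genes on the high side. Socs3, the feedback inhibitor of interleukin 6 signalling, was the exception, with 116 CPM in PH, 196 CPM in GPH and 233 CPM in control.

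All 7 measured genes of the list of neutrophil chemokines and related cytokines were higher in GPH, with a median log2 ratio of 1.71, and without the CPM limit 8 of 14 were higher and 2 lower. Il6, a cytokine that drives the acute phase response, had 1.36 CPM in PH and 25.6 CPM in GPH (211 and 701 UMIs), 18.8-fold higher (16.1 to 22), while control and G had 1.71 and 4.26 CPM. The alarmin Il33 had 35.1 and 221 CPM, 6.30-fold higher (6.07 to 6.54). Cxcl5, a ligand of the neutrophil receptor CXCR2, had 58.3 and 206 CPM, 3.52-fold higher, and Lif had 19.0 and 47.4 CPM, 2.49-fold higher. Cxcl15 and Cxcl2 were 3.12-fold and 1.75-fold higher over the whole gate but had ratios of 0.727 and 0.722 in cells without Dcn and Dpt UMIs. Among genes that draw monocytes and lymphocytes, 4 of 7 measured were higher and 1 lower. Ccl7 had 89.1 and 279 CPM, 3.13-fold higher, whereas Ccl2, its neighbour, had 967 and 862 CPM. Ccl5 had 29.2 CPM in PH and 12 CPM in GPH, 2.43-fold lower (2.17 to 2.73). Without the CPM limit this list was even, with 7 of 17 higher and 7 lower.

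Genes induced by type I interferon, which cells use to hold back viruses and to report damaged DNA, were higher in 15 of 15 measured members, with a median log2 ratio of 1.34, and in 25 of 25 without the CPM limit. Ifit1, which binds foreign RNA, had 4.01 CPM in PH and 42.6 CPM in GPH, 10.6-fold higher (9.63 to 11.7), with control at 6.5 and G at 19.2 CPM. Ifit3 had 1.80 and 26.9 CPM, 14.9-fold higher (13 to 17.2). In cells without Dcn and Dpt UMIs these ratios were 3.83 and 4.05. The nucleic acid sensor Zbp1 had 32.7 and 108 CPM, 3.31-fold higher. The other 3 members did not stand above both control and G. Isg15, a ubiquitin-like modifier, had 16.8 CPM in PH and 36.2 CPM in GPH, 2.15-fold higher (2.0 to 2.32), but 54.3 CPM in control and 36.7 CPM in G. Bst2 had 124 and 205 CPM, and 340.2 CPM in control. PH lay below all 3 other libraries for 15 of the 15 genes, and GPH above all 3 for 12. Over all 1133 genes on the high side, PH was lowest for 48.8% and GPH highest for 93.8%.

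The promoters of Isg15, Ifit1 and Ifit3 are shown because they carry the interferon response motif, GAAA followed after any 2 bases by GAAA (in capitals, searched on both strands, so that it can read TTTC, 2 bases, TTTC, with overlapping matches in Isg15). The windows are 250 bases before the RefSeq start on GRCm38.p6, chr4:156200819-156201068 on the minus strand, chr19:34640639-34640888 and chr19:34583279-34583528 on the plus strand.

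Isg15: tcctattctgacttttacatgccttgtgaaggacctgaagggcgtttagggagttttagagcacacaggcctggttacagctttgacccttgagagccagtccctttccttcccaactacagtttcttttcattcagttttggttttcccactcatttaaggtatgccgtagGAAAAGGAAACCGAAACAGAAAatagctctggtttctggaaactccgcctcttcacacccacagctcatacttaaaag

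Ifit1: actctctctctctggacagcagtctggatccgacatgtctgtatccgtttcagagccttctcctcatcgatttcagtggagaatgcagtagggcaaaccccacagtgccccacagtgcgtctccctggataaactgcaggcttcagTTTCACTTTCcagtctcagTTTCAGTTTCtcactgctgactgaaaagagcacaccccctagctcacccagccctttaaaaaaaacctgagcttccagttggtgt

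Ifit3: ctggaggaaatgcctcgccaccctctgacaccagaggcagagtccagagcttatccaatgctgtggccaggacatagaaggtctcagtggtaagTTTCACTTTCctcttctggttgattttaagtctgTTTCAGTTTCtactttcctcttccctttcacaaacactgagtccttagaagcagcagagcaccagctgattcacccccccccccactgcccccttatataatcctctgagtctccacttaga

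The motif stood in 8 of 18 list members with a promoter in the table and in 978 of 32851 promoters (2.98%).

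Antigen presentation genes were also higher in GPH than in PH. MHC class II, which shows peptides to CD4 T cells, had 6 of 6 measured members higher, with a median log2 ratio of 1.56, and without the CPM limit 8 of 9 were higher and 1 lower. H2-Ab1 had 83.3 CPM in PH and 285 CPM in GPH, 3.42-fold higher (3.33 to 3.52). Control and G had 266 and 235 CPM, so PH was the library that stood apart. The invariant chain Cd74 had 155 CPM in PH and 780.5 CPM in GPH, 5.02-fold higher, with 491 CPM in control. PH lay below all others for 6 of these 6 genes, and GPH above all others for 3, where all genes on the high side had 48.8% and 93.8%. In keratin-high GPH cells Cd74 reached 2564 CPM, and the part of free RNA in the tumour gate was not tested. MHC class I had 9 of 12 measured members higher and none lower, among them H2-K1 with 269 and 534 CPM, 1.98-fold higher, and B2m with 1584 and 2398 CPM, 1.51-fold higher.

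The integrated stress response is the programme that slows protein synthesis and makes the factors ATF4 and CHOP when amino acids run short, proteins misfold or mitochondria fail. Of its 13 measured genes 7 were higher and none lower, with a median log2 ratio of 1.28. Ddit3, the gene of CHOP, had 23.5 CPM in PH and 119 CPM in GPH, 5.09-fold higher (4.85 to 5.34), with 44.5 CPM in control and 35.9 CPM in G. Atf3 had 124 and 478 CPM, 3.86-fold higher (3.77 to 3.95), and Nupr1 93.6 and 330.2 CPM, 3.53-fold higher (3.43 to 3.62). Atf4 itself had 95.7 and 235 CPM, 2.45-fold higher, and the phosphatase subunit Ppp1r15a, which ends the response, had 78.6 and 190.5 CPM, 2.42-fold higher. The members that make serine and one-carbon units, Phgdh, Psat1, Shmt2 and Mthfd2, all differed by less than 1.5-fold. Slc7a11, the cystine importer, had 65.9 CPM in PH and 55.5 CPM in GPH, against 12.1 CPM in control. Gdf15, a secreted stress cytokine under the CPM limit, had 0.439 CPM in PH (68 UMIs) and 18 CPM in GPH (491 UMIs), 40.9-fold higher (31.7 to 53.5).

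For 7 of the 7 higher genes GPH lay above all 3 others, and PH below them for 6. Over all 1133 genes on the high side these shares were 93.8% and 48.8%. The ratio of Ddit3 was 4.59 in cells with a Dcn or Dpt UMI and 5.44 in cells without. The promoters of Atf3 and Nupr1 (RefSeq, GRCm38.p6, 250 bases before the start, chr1:191183334-191183583 and chr7:126625471-126625720, both minus strand) are shown for the composite site of ATF4 and C/EBP factors, TTGCATCA, in capitals.

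Atf3: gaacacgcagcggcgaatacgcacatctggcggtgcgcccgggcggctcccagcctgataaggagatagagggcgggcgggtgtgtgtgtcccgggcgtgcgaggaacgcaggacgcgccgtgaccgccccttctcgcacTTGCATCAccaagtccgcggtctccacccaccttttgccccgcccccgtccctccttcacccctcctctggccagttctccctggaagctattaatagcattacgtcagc

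Nupr1: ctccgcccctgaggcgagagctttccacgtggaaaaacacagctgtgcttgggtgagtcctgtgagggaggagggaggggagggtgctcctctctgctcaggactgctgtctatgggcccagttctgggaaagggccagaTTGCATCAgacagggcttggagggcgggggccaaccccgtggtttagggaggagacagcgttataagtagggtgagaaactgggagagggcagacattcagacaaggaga

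It was searched on both strands and stood in 6 of 22 list members with a promoter in the table and in 260 of 32851 promoters (0.791%).

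Chaperones of the endoplasmic reticulum, which help fold secreted proteins, had 6 of 24 measured members higher (25%, near the 22.4% of all measured genes) and none lower, with a median log2 ratio of 0.37 that was 0.11 with TMM factors. Hspa5 (BiP) had 467 and 892 CPM, 1.91-fold higher (1.88 to 1.94), but G reached 966 CPM. The cytosolic heat shock gene Dnajb1 had 325 and 1142 CPM, 3.52-fold higher. Targets of p53, the factor activated by DNA damage, had 7 of 10 measured members higher and none lower, and 12 of 26 higher without the CPM limit. The death receptor Fas had 7.14 CPM in PH and 39.9 CPM in GPH, 5.59-fold higher (5.14 to 6.08), and Mdm2, the ubiquitin ligase that turns p53 over, had 16.8 and 38.1 CPM, 2.27-fold higher (2.11 to 2.44). Cdkn1a (p21) had 40.2 and 57.6 CPM, 1.43-fold higher, below its 64.9 CPM in G. Bax had 97.6 CPM in PH and 78.1 CPM in GPH, and Bcl2l11 (BIM), another gene of cell death, had 65.4 and 189 CPM, 2.89-fold higher.

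Lysosome genes had 16 of 27 measured members higher in GPH and none lower, with a median log2 ratio of 0.67, and hydroxychloroquine was part of both treatments. The protease cathepsin B (Ctsb) had 124 and 381 CPM, 3.08-fold higher (3.01 to 3.15), and its levels in control and G were 131 and 145 CPM. The galactosidase gene Gla had 9.56 and 36.0 CPM, 3.77-fold higher, and the membrane protein gene Lamp2 122 and 232 CPM, 1.90-fold higher. GPH lay above the other 3 libraries for 16 of these 16 genes and PH below them for 5, where all genes on the high side had 93.8% and 48.8%. Autophagy genes had 6 of 20 higher (30%) and 1 lower (5%), near the 22.4% and 6.37% of all measured genes. Their median log2 ratio of 0.31 was 0.01 with TMM factors. The cargo receptor Sqstm1 (p62) had 319 and 592 CPM, 1.86-fold higher (1.82 to 1.89), while Map1lc3b, which marks the autophagosome, had 251 and 284 CPM. Bnip3, a receptor for mitochondria, was the lower member, with 72.3 and 37.0 CPM.

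**Figure D2:**
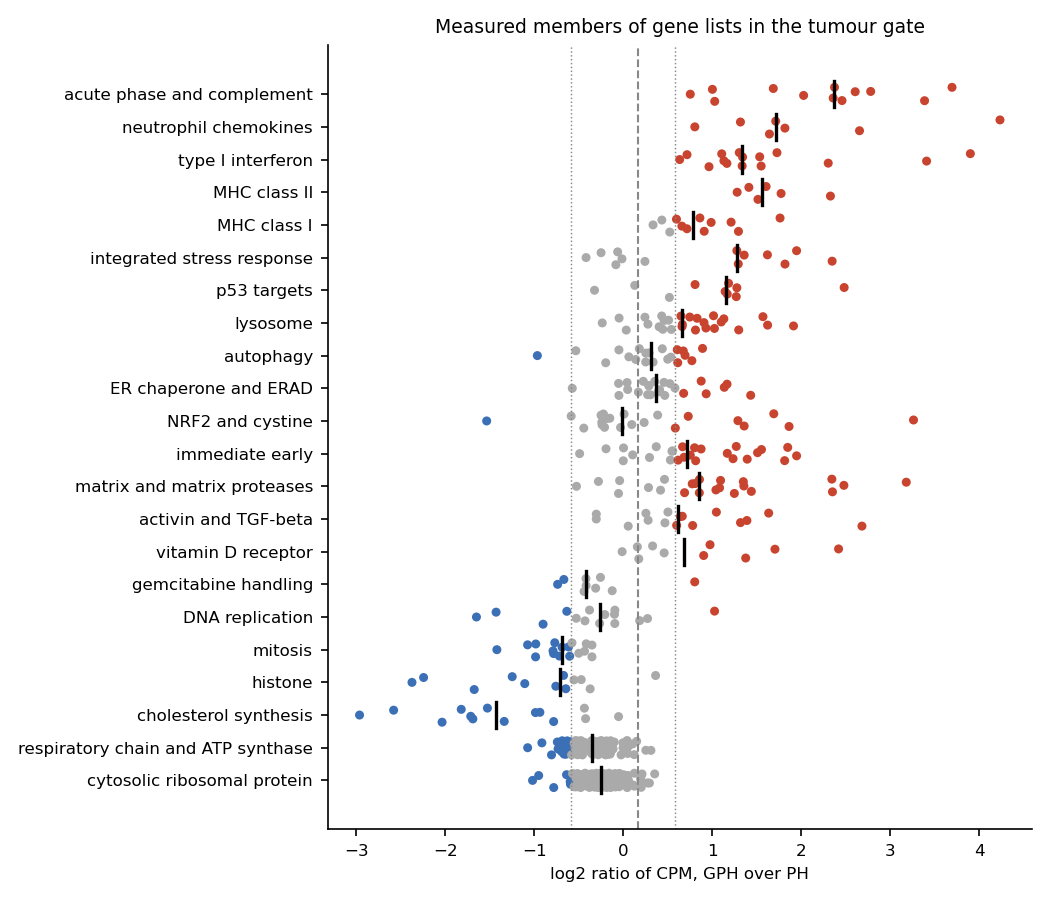
Measured members of 22 gene lists in the tumour gate, 1 point per gene, as the log2 ratio of CPM, GPH over PH; red and blue points lie past 1.5-fold (dotted lines), black bars are list medians and the dashed line is the median of all measured genes at 0.17. Acute phase genes have the highest list median at 2.37 and cholesterol synthesis the lowest at -1.43.

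Cell cycle genes were on the low side. Of 17 measured mitosis genes 11 were lower by 1.5-fold and none higher, with a median log2 ratio of -0.69, and 8 of 12 histone genes were lower. Birc5 (survivin) had 93.4 CPM in PH and 34.9 CPM in GPH, 2.67-fold lower (2.50 to 2.86), with 129 CPM in G. Mki67, the gene of the Ki-67 antigen, had 60.6 and 35.1 CPM, 1.73-fold lower (1.62 to 1.85). Top2a had 198 and 156 CPM, a difference under 1.5-fold. The share of cells with a Top2a or Mki67 UMI was 36.4% in GPH and 42.2% in PH, and 15.3% and 24.6% with cells thinned to 3000 UMIs. In cells without Dcn and Dpt UMIs the mitosis median was -0.10 and Mki67 was only 1.07-fold lower. In cells with such UMIs the median was -0.62. The histone median was -0.68 and -0.70 in these sets of cells. The mitosis median was -1.95 in cells without a Krt19 UMI. DNA replication genes had 1 higher and 4 lower of 15, with a median of -0.26, but in cells without Dcn and Dpt UMIs the median was 0.18, with 3 higher and 2 lower of 19. Over the whole gate Tk1, the thymidine kinase made in S phase, had 23.5 and 7.50 CPM, 3.14-fold lower.

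Genes that handle gemcitabine showed small differences. Of 9 measured members 1 was at least 1.5-fold higher (11.1%) and 2 lower (22.2%), where all measured genes had 22.4% and 6.37%. Dck and Rrm2 were under the CPM limit and are not among the 9. Dck, the kinase that activates the drug, had 8.69 CPM in PH and 4.79 CPM in GPH (1345 and 131 UMIs), 1.81-fold lower (1.51 to 2.19), and it was 2.09-fold lower in cells with a Dcn or Dpt UMI and 1.02-fold higher in cells without. Rrm1, a subunit of the target enzyme ribonucleotide reductase, had 37.5 and 22.5 CPM, 1.67-fold lower (1.53 to 1.81). The other subunit gene, Rrm2, had 18 and 11.4 CPM, 1.58-fold lower over the gate, but the direction turned in cells without Dcn and Dpt UMIs and in cells without Top2a and Mki67 UMIs. Samhd1, which removes the active triphosphate, had 82.6 and 144 CPM, 1.75-fold higher (1.68 to 1.81), with 79.0 CPM in control and 80.7 CPM in G. The transporter Slc29a1 had 69.7 and 56.2 CPM, 1.24-fold lower.

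The list of the vitamin D receptor, its partners and targets had 5 of 10 measured members higher (50%) and none lower. All measured genes had 22.4% and 6.37%. The list median log2 ratio was 0.68, and 0.36 with totals that left out mitochondrial and ribosomal protein genes. Vdr itself was low, with 1.65 CPM in PH and 2.45 CPM in GPH, 1.49-fold higher (1.12 to 1.95). Cyp24a1, the classic target that degrades vitamin D, had 3 UMIs in PH and none in GPH, so the receptor's activity could not be read from it at this depth. Osteopontin (Spp1) had 1545 and 5039 CPM, 3.26-fold higher (3.24 to 3.28), and thrombomodulin (Thbd) 8.73 and 46.7 CPM, 5.35-fold higher. Paricalcitol was part of both treatments.

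Matrix and matrix protease genes had 16 of 23 measured members higher and none lower, with a median log2 ratio of 0.86. Biglycan (Bgn) had 50.2 and 280.2 CPM, 5.58-fold higher, and Col3a1 264 and 673 CPM, 2.55-fold higher. Col1a1 had 17.9 CPM in PH and 91.5 CPM in GPH, 5.10-fold higher, but G held 91.3 CPM. The list median was 0.76 in cells with a Dcn or Dpt UMI and 0.44 in cells without. Activin and TGF-beta genes had 9 of 16 higher and none lower. Inhba, the activin A subunit, had 51.9 and 333 CPM, 6.42-fold higher (6.23 to 6.62), and Tgfb2 17.3 and 45.5 CPM, 2.62-fold higher. The growth factor receptor Egfr had 19.2 and 62.3 CPM, 3.24-fold higher (3.05 to 3.44). Hexokinase 2 (Hk2), which commits glucose to glycolysis, had 220.5 and 1074 CPM, 4.87-fold higher, within a list of hypoxia and glycolysis genes of which 5 of 19 were higher (26.3%) and 2 lower (10.5%), near the 22.4% and 6.37% of all measured genes. Immediate early genes had 16 of 26 higher, although Fos had 954 and 679.7 CPM. The redox list of NRF2 targets had 7 of 22 higher and 1 lower and a median of -0.01.

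**Figure D3:**
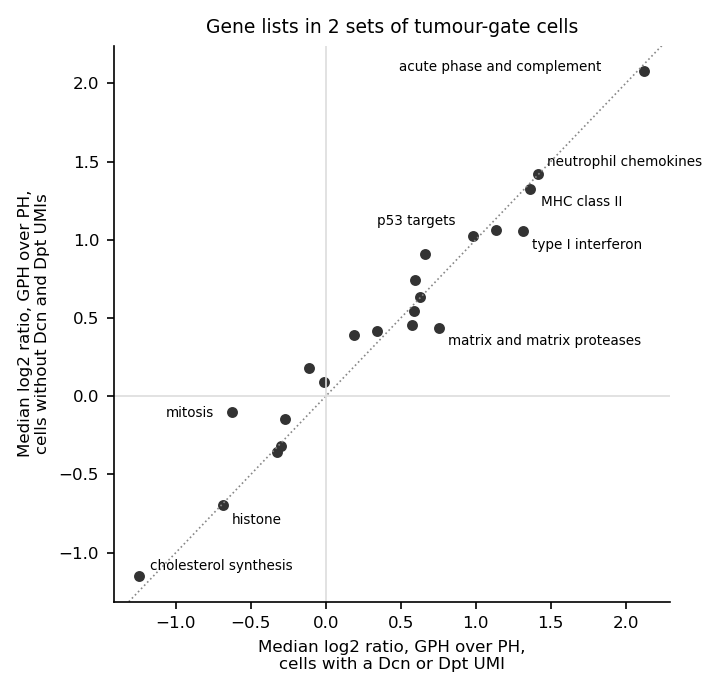
Median log2 ratio, GPH over PH, of the same 22 gene lists in tumour-gate cells with a Dcn or Dpt UMI (horizontal) and without (vertical), 1 point per list with the dotted line marking equality. Cholesterol synthesis lies at -1.24 and -1.15 and acute phase genes at 2.12 and 2.08, while mitosis lies at -0.62 and -0.10.

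Other measures moved with the tumour gate result. Fibroblast markers and the share of Dcn or Dpt cells were higher in GPH, as given above, and their part in the matrix and acute phase results was not tested beyond the split by Dcn and Dpt. Transcript length moved too. In 4 equal groups of measured genes from the shortest to the longest transcript, the median log2 ratio was -0.07, 0.12, 0.26 and 0.36. The nuclear RNA Malat1 had 10790 CPM in PH and 38161 CPM in GPH, and Neat1 682 and 1720 CPM. Of 82 respiratory chain genes 15 were lower and none higher (median log2 ratio -0.35), and of 83 ribosomal protein genes 6 were lower and none higher (-0.24). The Y-linked Eif2s3y had 0.32 CPM in PH and 9.69 CPM in GPH, and Xist had 4.14 and 1.86 CPM, both low in each library. The part of length, nuclear RNA and sex in the results was not tested. Beside them, some lists lay near all genes of their length group, such as autophagy with a median of 0.31 where that group had 0.26 and hypoxia and glycolysis with 0.22 where it had 0.26. Others lay apart, such as cholesterol synthesis with -1.43 where its group had 0.26.

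**Figure D4:**
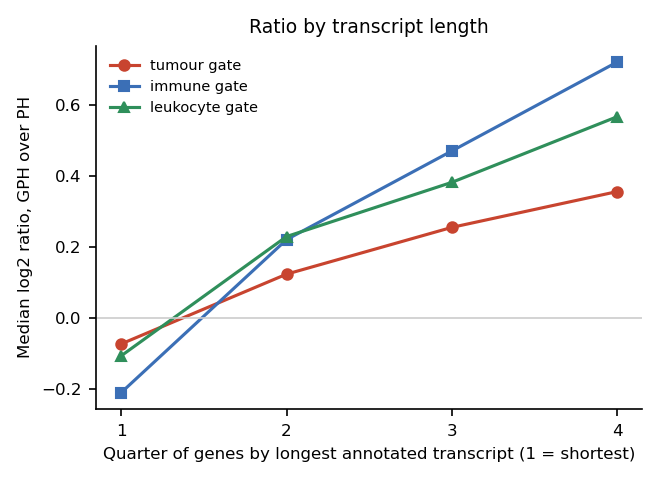
Median log2 ratio, GPH over PH, of measured genes in 4 equal groups by their longest annotated transcript, from the shortest (1) to the longest (4), for the tumour, immune and leukocyte gates. The tumour gate runs from -0.07 to 0.36 and the leukocyte gate from -0.11 to 0.57.

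The pair GPH and PH was set beside the pair G and control, which shares no library with it and also differs by gemcitabine. Of 4375 genes measured in both pairs, 806 (18.4%) were higher in GPH than in PH and 192 (4.39%) higher in G than in control. The overlap was 107 genes, 13.3% of the first set and 55.7% of the second. On the low side the sets held 305 genes (6.97%) and 239 genes (5.46%) and shared 11, which is 3.61% and 4.6%. Genes higher with gemcitabine on top of PH but lower with gemcitabine alone numbered 103, and the reverse held for 25. The list medians in G over control were -0.36 for cholesterol synthesis, -0.47 for type I interferon, 0.45 for mitosis, 0.49 for acute phase genes and 0.80 for neutrophil chemokines. The interferon median in G over control rested on 8 members (0 higher, 2 lower), against 15 in GPH over PH. Ifit1, higher in G than in control, was under the CPM limit in that pair and not counted. The medians of the mitosis and interferon lists thus had opposite signs in these pairs. Those of the acute phase and neutrophil chemokine lists had the same sign. Whether the effect of gemcitabine differs with PH was not tested.

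Immune cells were few in GPH, which limits what can be read. The immune gate held 3.32% of GPH cells (2.82 to 3.88) and 4.90% of PH cells (4.57 to 5.25). In it, 2160 of 5962 measured genes (36.2%) were higher in GPH and 715 (12%) lower. In the leukocyte gate 1815 of 5685 genes (31.9%) were higher and 620 (10.9%) lower, with a median log2 ratio of 0.27, against 799 and 1421 of 5672 under TMM with a median of -0.14. Intervals lay wholly past 1.5-fold for 469 (8.25%) and 152 genes (2.67%), and those of the other called genes reached under it. T cells with at least 2 Cd3 UMIs were 49.4% of the leukocyte gate in GPH (43 cells) and 48.3% in PH (341 cells), and myeloid cells 20.7% (18 cells) and 24.8% (175 cells). Markers of T cells summed to 1536 CPM in GPH and 1416 CPM in PH, those of macrophages to 2345 and 3546 CPM, and those of neutrophils to 5388 and 462 CPM. B cell markers were at 0 in GPH for all 6 genes and summed to 7.7 CPM in PH. In such summed counts, fewer cells of a type and less RNA per cell cannot be told apart. Keratin Krt8 had 106 CPM in the leukocyte gate of GPH and 8.24 CPM in PH, against 5711 CPM in keratin-high GPH cells.

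Inflammatory macrophage genes were lower in GPH leukocytes. Of 16 measured members 13 were lower by 1.5-fold and 1 higher, with a median log2 ratio of -1.34. Of all measured genes in the leukocyte gate, 10.9% were lower and 31.9% higher. The list median was -0.47, under 1.5-fold, with every cell weighted equally and -1.93 with cells thinned to 3000 UMIs. The neutrophil chemokine Cxcl1 had 2242 UMIs in 115 PH cells (637 CPM) and none in GPH, at least 121-fold lower when GPH is set at 3 counts. Control and G had 3.96 and 11.8 CPM of Cxcl1, so the high level was that of PH. Il10, the inhibitory cytokine, was also highest in PH, with 700 UMIs (199 CPM). It had none in GPH, at least 37.7-fold lower, and 7.40 and 4.07 CPM in control and G. Tnf had 224 CPM in PH and 19.3 CPM in GPH, 11.6-fold lower (6.43 to 23.3), with 31.4 and 15.4 CPM in control and G. Il1a had 289.6 and 28.1 CPM, 10.3-fold lower. Il1b had 1647 and 913 CPM, 1.80-fold lower (1.65 to 1.98), and Cxcl2 8668 and 3715 CPM, 2.33-fold lower (2.23 to 2.44), and for both GPH still lay above control, at 124 and 743 CPM. PH lay above all 3 other libraries for 12 of the 13 lower genes, and GPH below all 3 for 1. Over all 620 genes on the low side these shares were 61.8% and 72.1%. Ccl3 was the member on the high side, with 246 and 519 CPM, but in myeloid cells it had 351 and 162 CPM, 2.17-fold lower (1.55 to 3.11).

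Genes of resident and alternatively activated macrophages had 9 of 15 measured members lower (60%) and none higher, where all measured genes had 10.9% and 31.9%. The list median log2 ratio was -0.81, and -3.51 with cells thinned to 3000 UMIs. The lipid carrier Apoe had 2528 CPM in PH and 218 CPM in GPH, 11.6-fold lower (9.71 to 14.0), and the chitinase-like Chil3 388 and 22.9 CPM, 17.0-fold lower. Wfdc17, a secreted protease inhibitor of myeloid cells, had 2255 and 162 CPM, 13.9-fold lower (11.3 to 17.3). Complement C1qa had 1036 and 649 CPM, 1.6-fold lower, while Mrc1 had 183 and 193 CPM. In the 18 GPH and 175 PH myeloid cells Wfdc17 was 20-fold lower, Apoe 8.85-fold lower and C1qa 1.21-fold lower, so C1qa differed less there than Wfdc17 and Apoe. Chemokines that draw monocytes and lymphocytes were lower in 9 of 15 members and higher in 4. Ccl5 had 7147 and 1944 CPM, 3.68-fold lower (3.46 to 3.91), Ccl2 1746 and 653 CPM, 2.68-fold lower, and Cxcl9 701 and 114 CPM, 6.13-fold lower.

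MHC class II genes lay on the high side in leukocytes, with 7 of 8 measured members higher and none lower. All measured genes had 31.9% and 10.9%. H2-Aa had 540.0 CPM in PH and 1404 CPM in GPH, 2.60-fold higher (2.39 to 2.82), but 2270.0 CPM in G, and in myeloid cells it had 723 and 2948 CPM. For all 7 genes GPH lay between control and G. When every cell was thinned to 3000 UMIs the list median went from 1.37 to 0.26. Dendritic cell markers summed to 219.9 CPM in GPH and 51.4 CPM in PH, with Flt3, Xcr1, Cd209a, Itgae and Siglech at 0 in GPH.

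T cell regulation genes had 13 of 18 measured members higher and 1 lower, with a median log2 ratio of 0.92 that was 1.80 with cells thinned to 3000 UMIs. The inhibitory receptor Pdcd1 (PD-1) had 55.1 CPM in PH and 209 CPM in GPH (UMIs in 121 and 37 cells), 3.80-fold higher (3.0 to 4.79), with 40.2 and 84.2 CPM in control and G. Within T cells it had 154 and 497 CPM, 3.23-fold higher. Havcr2 (TIM-3) had 62.2 and 125 CPM, 2.01-fold higher, and the interleukin 7 receptor Il7r 69.9 and 160.1 CPM, 2.29-fold higher, while Ctla4 had 107 and 116 CPM. Tigit, with 6 UMIs in GPH, had 23 and 10.6 CPM and an interval that spans 1 (0.960 to 6.12-fold lower). Cytotoxic effector genes lay on both sides, with 6 of 16 higher (37.5%) and 3 lower (18.8%). All measured genes of the leukocyte gate had 31.9% and 10.9%. Granzyme B (Gzmb) had 326 and 118 CPM, 2.77-fold lower (2.16 to 3.60), and Gzma 925 and 475 CPM, 1.95-fold lower. Perforin (Prf1) had 59.4 and 114 CPM, 1.92-fold higher (1.43 to 2.55), so perforin and the granzymes it delivers lay on opposite sides.

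Interferon gamma (Ifng) had 65.4 CPM in PH and 697 CPM in GPH, 10.7-fold higher (9.04 to 12.6), from 107 of 706 and 21 of 87 cells, and 1 GPH cell gave 50.0% of its UMIs. Several other leading genes also rest on few cells of GPH. S100a9, a neutrophil gene, had 145 and 3013 CPM, 20.7-fold higher (18.8 to 22.9), from 10 PH cells and 9 GPH cells, with 42.6% from 1 cell. G0s2 had 3 UMIs in PH and 285 in GPH, a ratio of 588 (199 to 2868), from 8 GPH cells. Csf2 had 3.13 and 98.5 CPM from 5 GPH cells, with 64.3% from 1 cell, and Ccl1 and Lgals7 drew 81.9% and 69.8% from 1 cell. On the low side, Col3a1 and Col1a1 drew 94.8% and 96.2% of their PH UMIs from 1 cell. Mitosis genes were higher in 13 of 16 members (81.25%) in the leukocyte gate, where 31.9% of all measured genes were higher. Mki67 had 70.8 CPM in PH and 190.0 CPM in GPH, 2.68-fold higher, but within T cells it had 119 and 102 CPM.

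**Figure D5:**
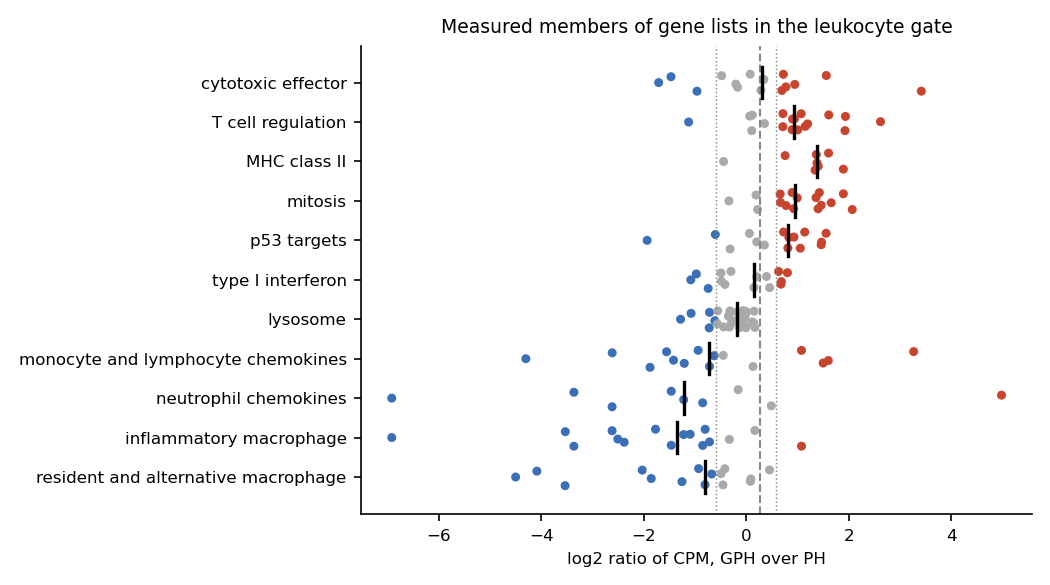
Measured members of 11 gene lists in the leukocyte gate (87 GPH cells and 706 PH cells), 1 point per gene, as the log2 ratio of CPM, GPH over PH; red and blue points lie past 1.5-fold (dotted lines), black bars are list medians and the dashed line is the median of all measured genes at 0.27. Inflammatory macrophage genes have a median of -1.34 and MHC class II genes of 1.37.

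Some genes lay on opposite sides in the tumour and leukocyte gates. This held for Il6 at 1.36 and 25.6 CPM in the tumour gate and 63.1 and 22.9 CPM in the leukocyte gate, PH given before GPH. Hmox1 had 58.7 and 563 CPM in the tumour gate and 256 and 45.7 CPM in the leukocyte gate, 5.60-fold lower there (3.80 to 8.62). Ccl7 had 89.1 and 279 CPM in the tumour gate and 1137 and 387 CPM in the leukocyte gate.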

How the data were processed

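Droplet RNA libraries of 4 groups were deposited, 1 per group, each pooling 3 animals. The authors' deposited matrices hold raw UMI counts over 32285 features, made with Cell Ranger 6.1 on mm10 per the submitters' processing notes and with Cell Ranger 7.0.1 per the file headers. Normalization was not applied to the deposited counts. How barcodes were called is not given in the sources used here.

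Counts were summed per library and gate and divided by the gate's total (CPM). The members and gene lists were chosen with earlier results of these data known. Named genes had at least 50 CPM in 1 library and the interval bound nearest to 1 farthest from it, 12 per direction in the tumour gate, 5 in the immune gate and 8 in the leukocyte gate; sex-linked genes, antigen receptor and haemoglobin genes, predicted genes and those of ribosomes and mitochondrial DNA were left out. Most other genes named are members of 36 lists or cell type markers. Malat1, Neat1 and the sex-linked Eif2s3y and Xist are in none of these and were given by name outside the ranking. A count of 0 was set at the floor of 3 counts for folds, and gene symbols with several entries were counted once. For Ddit3 the entry ENSMUSG00000025408 was used. Ratios were tested on simulated data. Alternatives were stricter gates and filters, thinning to 3000 UMIs per cell, totals without mitochondrial and ribosomal protein genes, TMM factors (edgeR 4.0.16), equal weight per cell and removal of doublets. Scrublet in scanpy 1.11.5 called 1 doublet in PH and 7 in GPH by its own threshold, so no doublets were removed in the main values; the alternative removed the highest scores, 2056 and 168 barcodes. Promoters came from RefSeq on GRCm38.p6 and transcript lengths from GENCODE M21. Tables were made with pandas 2.3.3 under Python 3.11.15, statistics with scipy 1.17.1 and plots with matplotlib 3.10.9. Some of the named genes are not reported here.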

Additional observations from a re-analysis of the deposited data

Results flagged for a closer look

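Some gene lists had medians on opposite sides of 0 in the tumour gate and in the leukocyte gate, and the difference between gates was not tested because each side is 1 library. All values are median log2 ratios, GPH over PH. Neutrophil chemokines had 1.71 in the tumour gate and -1.22 in the leukocyte gate. Monocyte and lymphocyte chemokines had 0.70 in the tumour gate, or -0.089 without the CPM limit, and -0.72 in the leukocyte gate. The inflammatory macrophage list, which shares Il6, Saa3 and Cxcl2 with other lists, had 1.73 in the tumour gate and -1.34 in the leukocyte gate. The tumour value rests on 5 members that passed the CPM limit, and without that limit 6 of 16 members were higher and 7 lower, with a median of -0.051, so its direction there depends on the filter. Matrix and matrix protease genes had 0.86 and -0.71, and in the leukocyte gate Col3a1 and Col1a1 came almost wholly from 1 PH cell. Mitosis genes had -0.69 and 0.96. In the leukocyte gate the high values of neutrophil chemokines and inflammatory macrophage genes were those of PH, which lay above all 3 other libraries for 6 of 6 and 12 of 13 lower genes. PH did so for 61.8% of all 620 lower genes of that gate.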

How the results depend on the processing

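No paired analysis was possible because each treatment had 1 library. Counts of genes past 1.5-fold moved most with the filter and the scaling. In the tumour gate (1133 higher, 322 lower) they were 590 and 828 with TMM factors, 240 and 123 among genes at 100 CPM or more, and 4151 and 2260 with no CPM filter, and 614 were lower when totals left out mitochondrial and ribosomal protein genes. In the immune gate (2160 and 715) they were 849 and 1696 with TMM factors and 411 and 304 at 100 CPM or more. The lower genes of that gate numbered 1128 after thinning, 1085 without mitochondrial and ribosomal protein totals, 1154 with every cell weighted equally and 1280 with no CPM filter. In the leukocyte gate (1815 and 620) they were 799 and 1421 with TMM factors and 329 and 231 at 100 CPM or more, with 1179 lower after thinning and 1236 lower with no CPM filter. Fewer genes pass the 100 CPM limit and more pass without a limit by construction; for the others the cause was not tested.

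Of 777 alternative values of 58 named gene results, 286 lay outside the interval of the main value. The printed intervals thus do not hold the changes that come from processing. The sign changed in 4 of the 777 values and in 83 of 1162 values of 102 list medians, spread over 37 lists and gates. Where the main value was at 1.5-fold or more, 3 and 4 of these values reversed. With no CPM filter the tumour medians of monocyte and lymphocyte chemokines and of inflammatory macrophage genes were -0.089 and -0.051. In cells without Dcn and Dpt UMIs the log2 ratio of Dck was 0.031 and that of Rrm2 0.30, and Rrm2 had 0.76 in cells without Top2a and Mki67 UMIs. The mitosis median of the immune gate was -0.57 in cells without a Krt19 UMI, and the matrix median of the leukocyte gate 0.061 with every cell weighted equally. For these too the cause was not tested. Among medians nearer 0, the NRF2 list of the tumour gate changed sign under 7 alternatives, hypoxia of the immune gate under 6 and type I interferon genes of the leukocyte gate under 5. Examples with TMM factors are, in the tumour gate, the BCL2 family (-0.20) and hypoxia (-0.06), and in the leukocyte gate cytotoxic effector (-0.05) and type I interferon genes (-0.44). The restriction to cells with a Dcn or Dpt UMI and the removal of genes under 1/10 of their keratin-high level were chosen after seeing the data.

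Each ratio compares 2 libraries of 3 pooled animals, so the spread between animals is unknown. Dose and time for the drugs were not all given. The 87 leukocytes of GPH limit that gate to large differences, and 1 cell can set a value there. Kept cells of GPH were deeper, and more of its barcodes were lost to the mitochondrial limit.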
